A study of Mus musculus with 8 samples.

Results

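Autophagy core machinery and receptors were represented by 39 genes, chosen by name for their roles in building the autophagosome and loading its cargo. They comprise 5 genes of the ULK complex, 6 of the class III PI3-kinase complex, 5 for membrane supply and binding of its lipid product, 10 for conjugation, 5 of the ATG8 family, 5 cargo receptors and 3 of the TFEB family. All 39 were listed in each of the 8 count tables, among 55536 genes of which 21421 were protein-coding. A gene was measured in an assay where its mean count over the 4 libraries was at least 30. All 39 were measured in RNA-seq, of 10814 measured genes, and 31 in ribosome profiling, of 9169. In RNA, Mitf lay just inside the limit with a mean count of 31.2. In footprints, Atg4d at 33.0 lay inside, and Tfeb at 28.5 and Atg10 at 25.5 lay outside. Footprints of Ulk2, Atg4a, Map1lc3b, Gabarapl2, Optn and Mitf also fell short, so no footprint ratio is given for these 8 genes.

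The cells were KRPC-A, a line of pancreatic tumour cells resembling ductal adenocarcinoma, grown from tumours of genetically engineered C57BL/6 mice. They were Gcn2 knockout (KO) or Gcn2 wild type (WT). Gcn2, whose mouse gene is Eif2ak4, is the kinase that senses uncharged tRNA and slows translation when an amino acid runs short. Cells of each genotype spent 1 h in leucine-free or in amino acid-replete medium, and RNA-seq and ribosome footprints were made for each combination. The sample titles do not say whether both assays used the same culture. The groups were KO leucine-free, KO replete, WT leucine-free and WT replete cells, with 1 library per assay in each. How the knockout was made, and whether it was 1 clone, is not given in the sources used here. With no replicate of any group, every ratio compares a pair of libraries and has no check against the spread between cultures.

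Autophagy encloses cytoplasm in a double membrane and delivers it to the lysosome, which returns amino acids and lipids to the cell. The ULK complex starts the process, the class III PI3-kinase marks the forming membrane, and 2 conjugation systems attach ATG8 proteins to it. Receptors bind both ATG8 proteins and cargo, and the TFEB family of transcription factors drives many lysosomal and autophagy genes. In pancreatic ductal adenocarcinoma, autophagy is known as a source of nutrients. Much of its control by amino acids acts on the proteins, through phosphorylation by mTORC1 among others, which RNA and footprint counts do not measure.

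Counted reads ranged from 49136610 to 60680169 in the RNA libraries and from 2671491 to 9993211 in the footprint libraries, of which WT leucine-free was the smallest. Protein-coding genes took 63.8% and 64.2% of counted RNA reads in KO leucine-free and KO replete cells, and 67.2% and 72.9% in WT leucine-free and WT replete cells. Eif2ak4 RNA stood at 16.6 and 13.6 CPM, that is normalised counts per 1000000 protein-coding reads, in KO leucine-free and KO replete cells, against 70.2 and 86.0 CPM in WT leucine-free and WT replete cells. Of 8 ductal and epithelial markers, 5 were measured in RNA, and Epcam had no read in the RNA libraries. The 8 summed to 1080.0 CPM of RNA in KO leucine-free, 473 CPM in KO replete, 325 CPM in WT leucine-free and 235 CPM in WT replete cells. Sox9 and Krt18 made up most of that sum, Sox9 with 744 CPM in KO leucine-free, 291 CPM in KO replete, 189 CPM in WT leucine-free and 154 CPM in WT replete cells, and Krt19, at most 0.597 CPM, was lower in KO. Acinar markers stayed at or below 0.119 CPM of RNA in sum, and immune and endothelial markers lay between 0.339 and 0.915 CPM. Fibroblast markers summed to between 58.0 and 65.5 CPM, most of it Pdgfrb, which was higher in KO at 58.4 and 52.8 CPM in leucine-free and replete medium, against 45.2 and 41.9 CPM in WT. Col1a1 was lower in KO at 5.94 and 4.59 CPM, against 17.3 and 15.1 CPM in WT, and so was Col1a2. The part of these marker levels in the results was not tested. Each library pools many cells, so fewer cells with a transcript and less of it per cell cannot be told apart.

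Few of the 39 genes differed 2-fold between any pair of libraries. A gene was called where the size of its log2 ratio reached 1 and its 95% interval, which covers counting error only, excluded 0. Each assay was scaled on its own, so ratios are relative to other genes. A change shared by all genes, such as a general fall in footprints, would not show. In RNA, 0 of 39 were called after leucine removal in KO cells and 0 of 39 in WT cells, beside 3.17% and 1.71% of all measured genes. In footprints, Atg12 was called in KO cells (1 of 31, beside 2.13% of all) and 0 of 31 in WT cells (1.48% of all). The members' counts and medians in RNA and footprints thus stood near those of all genes. The median RNA ratio was -0.01 in KO cells, the same as over all genes, and 0.02 in WT cells beside 0.01 over all genes. In footprints it was 0.06 in KO cells beside -0.02, and 0.04 in WT cells beside -0.07.

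**Figure D1:**
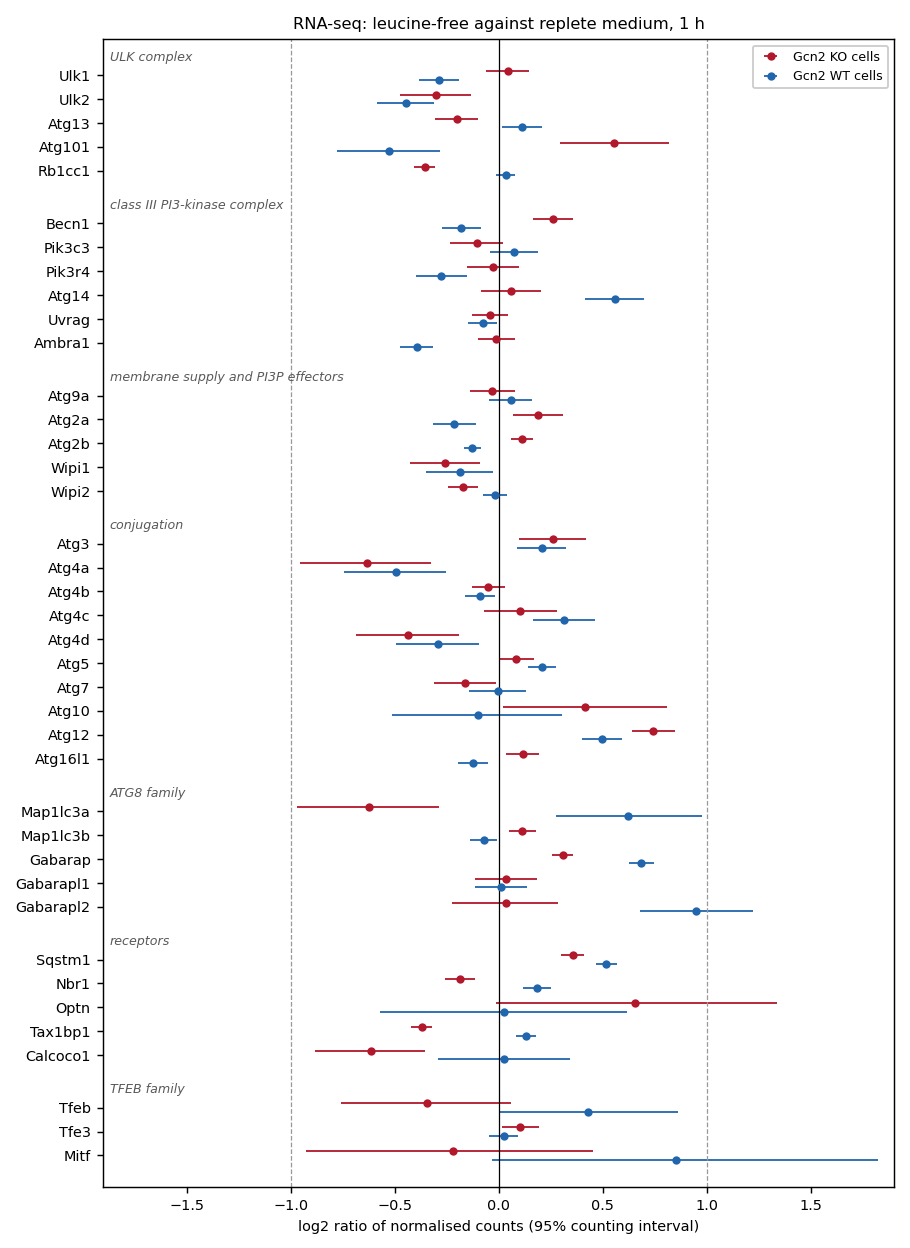
RNA log2 ratio of leucine-free over replete cells for each of the 39 genes, grouped by role, in KO (red) and WT (blue) cells; bars are 95% counting intervals and dashed lines mark 2-fold. The points of both genotypes lie within the dashed lines, and Map1lc3a at -0.62 in KO and 0.62 in WT cells is on opposite sides of 0.

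Levels were compared between genes as RNA reads per kilobase of exon and 1000000 reads (RPKM) in WT replete cells. Gabarap, an ATG8 protein, was the most abundant of the 39 at 51.3 RPKM, above 93% of measured genes, and the receptor Sqstm1 (p62) followed at 41.8 RPKM and the conjugation gene Atg5 at 33.8 RPKM. Mitf was the lowest at 0.0655 RPKM. Within the ULK complex, levels ran from 4.13 RPKM for Ulk2 to 12.3 RPKM for Rb1cc1. In the class III PI3-kinase complex they ran from 3.07 RPKM for Pik3r4 to 11.2 RPKM for Ambra1. For membrane supply, Wipi1 was lowest at 3.69 RPKM and Atg2b highest at 17.2 RPKM. Conjugation genes spread wider, with Atg10 lowest at 1.51 RPKM. The lowest ATG8 gene was Gabarapl2 at 1.80 RPKM and the lowest receptor Optn at 0.324 RPKM. Tfe3, at 8.79 RPKM, was the highest of the TFEB family, and Tfeb stood at 0.35 RPKM.

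The ATG8 family held the 3 highest RNA ratios of WT cells after leucine removal among those whose interval lay above 0, with a median of 0.62 over its 5 genes. ATG8 proteins are the small ubiquitin-like proteins that are joined to the lipid of the autophagosome membrane. Gabarap (ENSMUSG00000018567, chr11:69991143-69994951 in GRCm38, plus strand) had 205 CPM in KO leucine-free and 166 CPM in KO replete cells, and 152 CPM in WT leucine-free and 94.6 CPM in WT replete cells. WT replete cells were the low library and KO leucine-free cells the high one. The log2 ratio of leucine-free over replete was 0.31 (0.26 to 0.36) in KO and 0.69 (0.63 to 0.74) in WT cells, a distance from the median that 1.40% of the 500 genes nearest in count reached in WT cells. Gabarapl2, a close relative, had 7.51 CPM in KO leucine-free and 7.35 CPM in KO replete cells, and 8.06 CPM in WT leucine-free and 4.18 CPM in WT replete cells. Here 3 libraries lay together and WT replete stood below them, with ratios of 0.03 in KO and 0.95 (0.68 to 1.22) in WT cells. Since the WT replete library also serves the KO against WT comparison in replete medium, the ratios there share it. They were 0.81 (0.75 to 0.87) for Gabarap and 0.81 (0.54 to 1.09) for Gabarapl2.

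Map1lc3a (ENSMUSG00000027602, chr2:155276297-155278073, plus strand), which encodes LC3A, had 3.58 CPM in KO leucine-free and 5.52 CPM in KO replete cells, and 4.30 CPM in WT leucine-free and 2.79 CPM in WT replete cells. Its RNA ratio was -0.62 (-0.97 to -0.29) in KO and 0.62 (0.28 to 0.97) in WT cells, with the KO replete library the highest of the 4. Its footprints stood at 28.0 CPM in KO leucine-free and 18.1 CPM in KO replete cells, and 16.0 CPM in WT leucine-free and 17.7 CPM in WT replete cells, and here KO leucine-free cells were apart from the other 3 libraries. The footprint ratio was 0.63 (0.25 to 1.01) in KO and -0.13 (-0.69 to 0.37) in WT cells. Map1lc3b, the gene of LC3B whose lipidated form is the usual readout of autophagosomes, had RNA at 116 CPM in KO leucine-free and 107 CPM in KO replete cells, and 92.6 CPM in WT leucine-free and 97.4 CPM in WT replete cells. Its ratio was 0.11 in KO and -0.07 in WT cells. Counted footprints of Map1lc3b numbered 6 in KO leucine-free, 11 in KO replete, 10 in WT leucine-free and 17 in WT replete cells, against RNA counts from 3623 to 4113. Reads that map to several places were not counted in the deposited tables, and the part of that in this gap was not tested.

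Gabarapl1, the remaining ATG8 gene, shares 28.3% of its exonic bases with another gene, and reads from such stretches were dropped by the counting. Its RNA stood at 21.5 CPM in KO leucine-free and 21.0 CPM in KO replete cells, and 25.7 CPM in WT leucine-free and 25.5 CPM in WT replete cells, with ratios of 0.03 in KO and 0.01 in WT cells. Ribosome footprints stood at 29.3 CPM in KO leucine-free and 45.6 CPM in KO replete cells, and 32.8 CPM in WT leucine-free and 38.3 CPM in WT replete cells. The KO footprint ratio, -0.63 (-0.95 to -0.33), was the lowest of the 31 genes, and the WT ratio was -0.22 (-0.59 to 0.13). Gabarap footprints were 177 CPM in KO leucine-free and 195 CPM in KO replete cells, and 179 CPM in WT leucine-free and 227 CPM in WT replete cells, so the library lowest in RNA was highest in footprints. The ratio was -0.14 (-0.27 to -0.01) in KO and -0.34 (-0.49 to -0.19) in WT cells.

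Gabarap, Gabarapl2 and Map1lc3a have short exonic lengths of 1844, 2325 and 1181 nt, and RNA ratios of all genes varied with length. With the trend on length removed, the WT leucine ratios in RNA were 0.51 for Gabarap, 0.81 for Gabarapl2 and 0.35 for Map1lc3a, and each interval remained above 0.

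**Figure D2:**
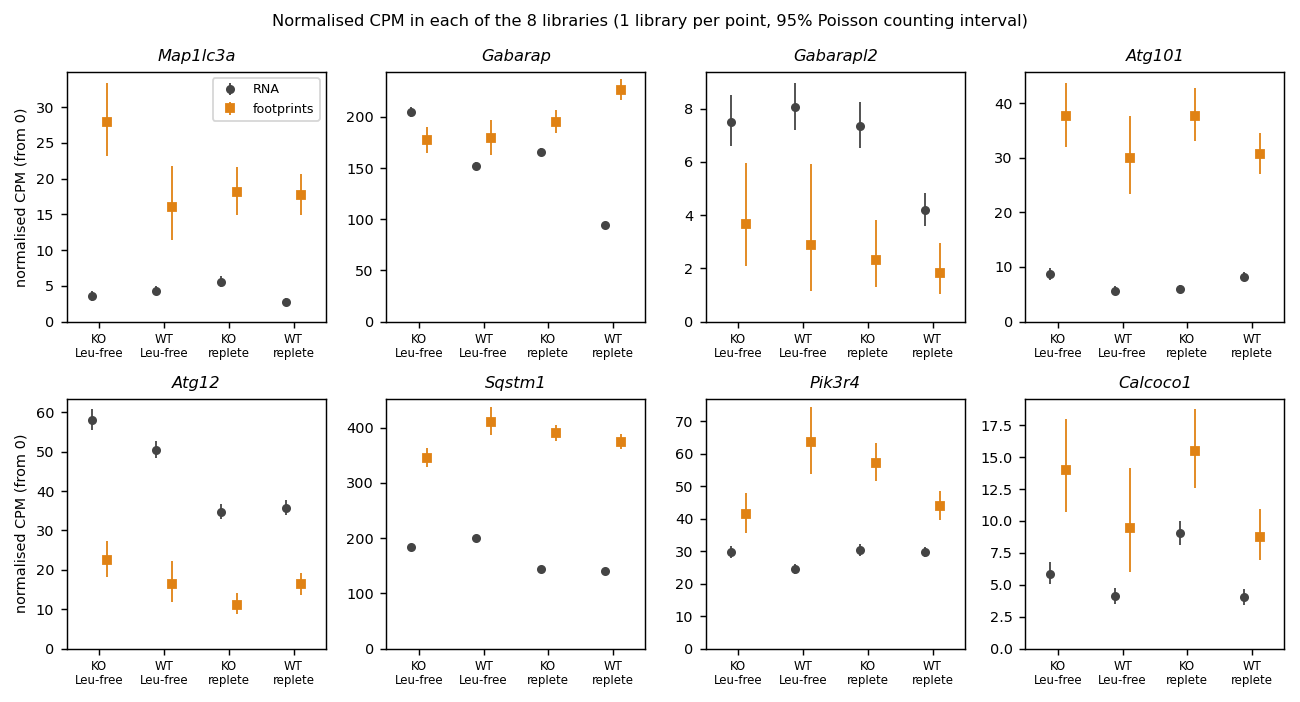
Normalised CPM of 8 of the genes in each library, with RNA as dark circles and footprints as orange squares; bars are 95% Poisson counting intervals and every axis starts at 0. Gabarap RNA is lowest in WT replete cells at 94.6 CPM, where its footprints are highest at 227 CPM.

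Among the receptors, Sqstm1 RNA was above its replete level after leucine removal in both genotypes. Sqstm1 (ENSMUSG00000015837, chr11:50199366-50210827, minus strand) encodes p62, which links ubiquitinated cargo to ATG8 proteins and is itself degraded with it. RNA levels were 184 CPM in KO leucine-free and 144 CPM in KO replete cells, and 201 CPM in WT leucine-free and 140.3 CPM in WT replete cells. Both leucine-free libraries lay above both replete libraries, with ratios of 0.35 (0.30 to 0.41) in KO and 0.52 (0.47 to 0.57) in WT cells, below the 2-fold limit. Of the 500 genes nearest in count, 4.40% in KO and 2.20% in WT cells were as far from their median. In footprints, values were 346 CPM in KO leucine-free and 389.9 CPM in KO replete cells, and 411 CPM in WT leucine-free and 375 CPM in WT replete cells, with ratios of -0.17 (-0.27 to -0.08) in KO and 0.13 (0.03 to 0.24) in WT cells. The separation seen in RNA was thus not present in footprints, where KO leucine-free cells were lowest.

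Nbr1, a receptor that works with p62, had RNA ratios of -0.19 in KO and 0.18 in WT cells. Its RNA stood at 85.6 CPM in KO leucine-free and 97.4 CPM in KO replete cells, and 92.4 CPM in WT leucine-free and 81.3 CPM in WT replete cells. Footprint levels were 81.8 CPM in KO leucine-free and 113 CPM in KO replete cells, and 116 CPM in WT leucine-free and 85.2 CPM in WT replete cells. KO replete and WT leucine-free cells were the high pair, and the footprint ratio was -0.46 (-0.65 to -0.28) in KO and 0.45 (0.24 to 0.64) in WT cells. Calcoco1, a receptor for endoplasmic reticulum, had RNA at 5.88 CPM in KO leucine-free and 9.02 CPM in KO replete cells, and 4.08 CPM in WT leucine-free and 4.01 CPM in WT replete cells. Both KO libraries lay above both WT libraries, and KO replete cells were highest. The KO against WT ratio was 0.53 (0.22 to 0.84) in leucine-free medium and 1.17 (0.90 to 1.44), which was called, in replete medium. Its footprints, 14.0 CPM in KO leucine-free and 15.5 CPM in KO replete cells, and 9.42 CPM in WT leucine-free and 8.77 CPM in WT replete cells, kept the same order of genotypes, at 0.82 (0.37 to 1.27) in replete medium. Tax1bp1, another ubiquitin-binding receptor, had RNA ratios to leucine of -0.37 in KO and 0.13 in WT cells. Optn had at most 1.44 CPM, and its intervals included 0 in each RNA comparison.

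In the conjugation group, Atg12 had the highest leucine ratio of KO cells in both assays. Atg12 is the ubiquitin-like protein that is joined to Atg5 and, with Atg16l1, places ATG8 on the membrane. RNA levels were 58.1 CPM in KO leucine-free and 34.7 CPM in KO replete cells, and 50.5 CPM in WT leucine-free and 35.8 CPM in WT replete cells. Both leucine-free libraries lay above both replete ones, at 0.74 (0.64 to 0.85) in KO and 0.50 (0.40 to 0.59) in WT cells. Of the genes nearest in count, 1.80% in KO and 5.60% in WT cells were as far out. Its footprints stood at 22.5 CPM in KO leucine-free and 11.1 CPM in KO replete cells, and 16.4 CPM in WT leucine-free and 16.3 CPM in WT replete cells. The KO footprint ratio of 1.01 (0.56 to 1.47) was called, on 98 footprints in KO leucine-free cells, and 4.20% of genes of like count were as far out. It lay at 0.99 with a prior count of 5, which ended the call. In WT cells the footprint ratio was 0.02 (-0.54 to 0.52).

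The E2-like enzyme Atg3, which hands ATG8 proteins to the membrane lipid, was below WT in KO cells in both media. Its RNA stood at 20.1 CPM in KO leucine-free and 16.8 CPM in KO replete cells, and 30.6 CPM in WT leucine-free and 26.6 CPM in WT replete cells, with KO against WT ratios of -0.61 (-0.75 to -0.47) without leucine and -0.66 (-0.80 to -0.52) with replete medium. Ribosome footprints stood at 50.0 CPM in KO leucine-free and 58.9 CPM in KO replete cells, and 56.9 CPM in WT leucine-free and 80.4 CPM in WT replete cells, highest in WT replete cells. Leucine removal gave RNA ratios of 0.26 in KO and 0.21 in WT cells, and footprint ratios of -0.24 in KO and -0.49 (-0.77 to -0.23) in WT cells. Atg5, the acceptor of Atg12, had RNA at 69.8 CPM in KO leucine-free and 65.9 CPM in KO replete cells, and 91.6 CPM in WT leucine-free and 79.4 CPM in WT replete cells. It too was lower in both KO libraries, at -0.39 against WT without leucine and -0.27 with replete medium. In footprints, values were 52.5 CPM in KO leucine-free and 47.3 CPM in KO replete cells, and 54.5 CPM in WT leucine-free and 66.8 CPM in WT replete cells, with a KO against WT ratio of -0.50 (-0.70 to -0.30) in replete medium.

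The ATG4 proteases trim ATG8 proteins before conjugation and free them afterwards. Atg4a RNA stood at 4.19 CPM in KO leucine-free and 6.51 CPM in KO replete cells, and 5.84 CPM in WT leucine-free and 8.24 CPM in WT replete cells, below its replete level in both genotypes, at -0.64 (-0.95 to -0.33) in KO and -0.50 (-0.74 to -0.25) in WT cells. Atg4d RNA stood at 7.06 CPM in KO leucine-free and 9.56 CPM in KO replete cells, and 9.08 CPM in WT leucine-free and 11.1 CPM in WT replete cells, with ratios of -0.44 in KO and -0.29 in WT cells. Its footprints, 7.79 CPM in KO leucine-free and 5.87 CPM in KO replete cells, and 5.73 CPM in WT leucine-free and 5.24 CPM in WT replete cells, rested on 14 to 46 reads per library and had wide intervals, at 0.41 (-0.30 to 1.11) in KO cells. Atg10, the E2-like enzyme for Atg12, had RNA at 3.64 CPM in KO leucine-free and 2.74 CPM in KO replete cells, and 2.42 CPM in WT leucine-free and 2.6 CPM in WT replete cells, with ratios of 0.41 (0.02 to 0.81) in KO and -0.10 (-0.51 to 0.30) in WT cells. Atg4b, Atg4c, Atg7 and Atg16l1 had RNA ratios to leucine between -0.16 and 0.31 across both genotypes.

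In the ULK complex, Atg101 showed opposite RNA ratios in the genotypes. Atg101 (ENSMUSG00000037204, chr15:101284272-101290945, plus strand) stabilises Atg13, which binds the kinases to the scaffold Rb1cc1 (FIP200). RNA levels were 8.69 CPM in KO leucine-free and 5.92 CPM in KO replete cells, and 5.69 CPM in WT leucine-free and 8.21 CPM in WT replete cells. KO leucine-free and WT replete cells were the high pair, giving 0.55 (0.30 to 0.82) in KO and -0.53 (-0.78 to -0.29) in WT cells. Footprint levels were 37.6 CPM in KO leucine-free and 37.7 CPM in KO replete cells, and 29.9 CPM in WT leucine-free and 30.6 CPM in WT replete cells, with both KO libraries above both WT libraries and leucine ratios of -0.00 in KO and -0.03 in WT cells.

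Ulk1, the kinase that starts autophagosome formation and is held back by mTORC1, had RNA at 45.0 CPM in KO leucine-free and 43.7 CPM in KO replete cells, and 39.4 CPM in WT leucine-free and 48.0 CPM in WT replete cells. Its ratio was 0.04 (-0.06 to 0.15) in KO and -0.29 (-0.38 to -0.19) in WT cells. Its footprints stood at 21.5 CPM in KO leucine-free and 18.5 CPM in KO replete cells, and 18.8 CPM in WT leucine-free and 15.5 CPM in WT replete cells, and their leucine intervals included 0 in both genotypes. The related kinase Ulk2 had RNA at 14.9 CPM in KO leucine-free and 18.4 CPM in KO replete cells, and 18.1 CPM in WT leucine-free and 24.7 CPM in WT replete cells, below its replete level in both genotypes at -0.30 (-0.48 to -0.13) in KO and -0.45 (-0.59 to -0.31) in WT cells. Atg13 had RNA at 42.7 CPM in KO leucine-free and 49.1 CPM in KO replete cells, and 43.6 CPM in WT leucine-free and 40.4 CPM in WT replete cells. Atg13 footprints stood at 25.9 CPM in KO leucine-free and 29.5 CPM in KO replete cells, and 20.5 CPM in WT leucine-free and 21.4 CPM in WT replete cells. KO replete cells were highest in both assays, with a KO against WT footprint ratio of 0.46 (0.17 to 0.76) in replete medium. Rb1cc1 had RNA at 162 CPM in KO leucine-free and 207 CPM in KO replete cells, and 185 CPM in WT leucine-free and 181 CPM in WT replete cells, with ratios of -0.36 in KO and 0.03 in WT cells. Ribosome footprints stood at 70.8 CPM in KO leucine-free and 72.3 CPM in KO replete cells, and 51.6 CPM in WT leucine-free and 71.4 CPM in WT replete cells, and the WT leucine-free library was the low one, at -0.46 (-0.76 to -0.19) against WT replete.

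**Figure D3:**
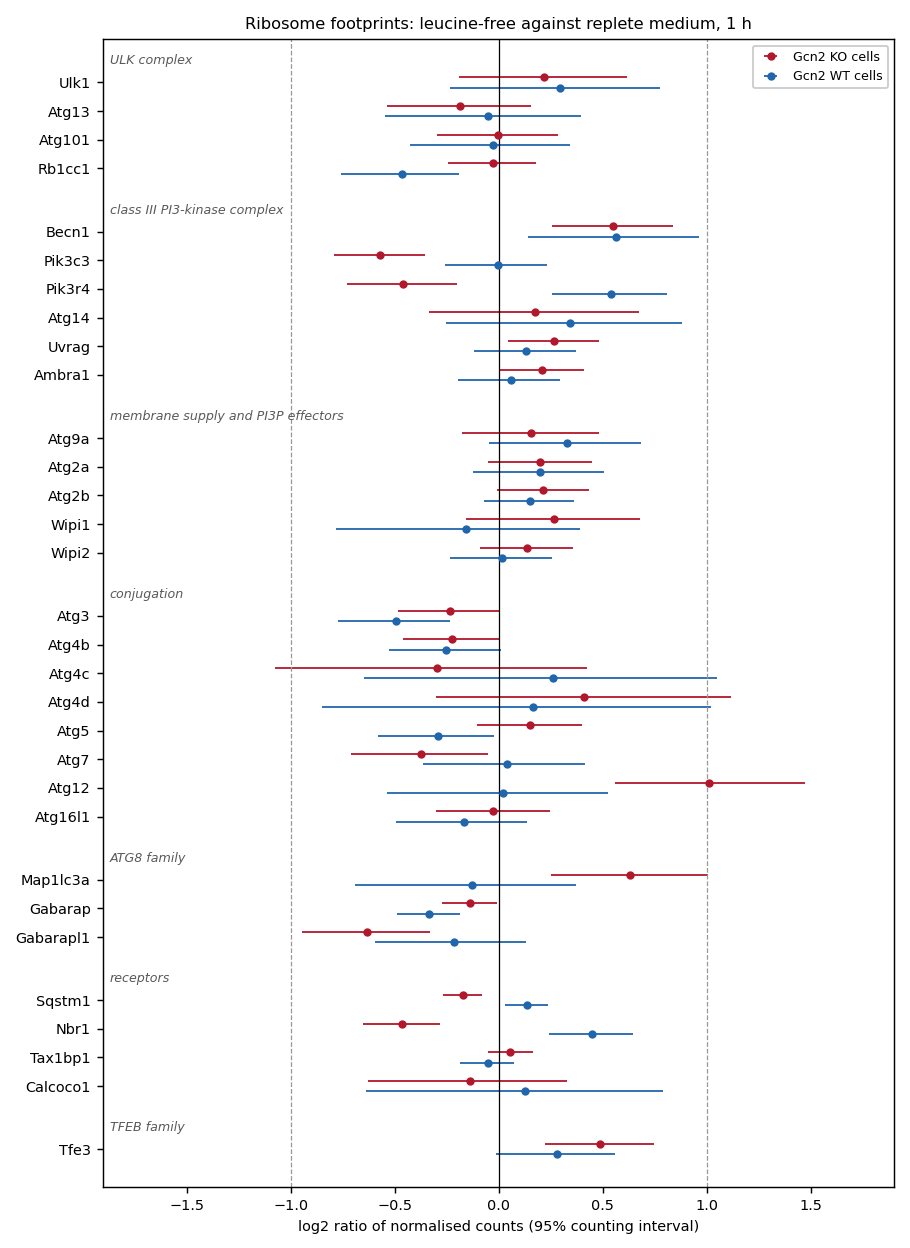
Footprint log2 ratio of leucine-free over replete cells for the 31 genes measured in footprints, in KO (red) and WT (blue) cells; bars are 95% counting intervals and dashed lines mark 2-fold. Atg12 in KO cells at 1.01 is the point past a dashed line, and Pik3r4 and Nbr1 lie on opposite sides of 0 in the genotypes.

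The class III PI3-kinase complex makes the lipid PI3P on the forming autophagosome. Footprints of its scaffold subunit Becn1 were above their replete level after leucine removal in both genotypes. They stood at 45.4 CPM in KO leucine-free and 31.1 CPM in KO replete cells, and 29.5 CPM in WT leucine-free and 20.0 CPM in WT replete cells, and the ratio was 0.55 (0.26 to 0.84) in KO and 0.56 (0.14 to 0.96) in WT cells. In each medium the KO library lay above WT, at 0.62 (0.23 to 1.03) without leucine and 0.63 (0.33 to 0.93) with replete medium. Its RNA stood at 54.4 CPM in KO leucine-free and 45.4 CPM in KO replete cells, and 42.4 CPM in WT leucine-free and 48.0 CPM in WT replete cells, with leucine ratios of 0.26 in KO and -0.18 in WT cells. Becn1 shares 43.9% of its exonic bases with Cntd1 on the other strand, and reads there were dropped.

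Pik3r4, the VPS15 subunit that holds the complex together, had RNA at 29.7 CPM in KO leucine-free and 30.3 CPM in KO replete cells, and 24.5 CPM in WT leucine-free and 29.7 CPM in WT replete cells. In footprints, values were 41.5 CPM in KO leucine-free and 57.2 CPM in KO replete cells, and 63.5 CPM in WT leucine-free and 43.8 CPM in WT replete cells, high in WT leucine-free and KO replete cells. The footprint ratio was -0.46 (-0.73 to -0.20) in KO and 0.54 (0.26 to 0.81) in WT cells. Pik3c3, the lipid kinase VPS34, had RNA at 28.1 CPM in KO leucine-free and 30.3 CPM in KO replete cells, and 31.3 CPM in WT leucine-free and 29.7 CPM in WT replete cells, a narrow range. Footprint levels were 57.7 CPM in KO leucine-free and 85.9 CPM in KO replete cells, and 72.9 CPM in WT leucine-free and 73.3 CPM in WT replete cells, and KO leucine-free cells were the low library, at -0.57 (-0.79 to -0.36) against KO replete. Atg14, which targets the complex to autophagosomes, had leucine ratios in RNA of 0.06 in KO and 0.56 (0.42 to 0.70) in WT cells. Ambra1, a regulator of the complex, stood at -0.01 in KO and -0.40 (-0.48 to -0.31) in WT cells. Uvrag, the subunit of the endosomal form of the complex, was below WT in KO cells at -0.33 without leucine and -0.37 with replete medium.

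Genes for membrane supply and PI3P binding had leucine ratios in RNA from -0.26 to 0.19 in KO and from -0.21 to 0.06 in WT cells. Atg2a and Atg2b encode lipid transfer proteins. Atg2b RNA stood at 186 CPM in KO leucine-free and 173 CPM in KO replete cells, and 211 CPM in WT leucine-free and 231 CPM in WT replete cells. Atg2b footprints were 69.7 CPM in KO leucine-free and 60.1 CPM in KO replete cells, and 94.6 CPM in WT leucine-free and 85.4 CPM in WT replete cells. Both KO libraries lay below both WT libraries in both assays, with KO against WT footprint ratios of -0.44 (-0.69 to -0.19) without leucine and -0.51 (-0.69 to -0.33) with replete medium. Atg2a RNA stood at 35.1 CPM in KO leucine-free and 30.8 CPM in KO replete cells, and 35.0 CPM in WT leucine-free and 40.5 CPM in WT replete cells. Atg2a footprints were 54.8 CPM in KO leucine-free and 47.8 CPM in KO replete cells, and 45.9 CPM in WT leucine-free and 40.1 CPM in WT replete cells, above WT in the KO cells of each medium. Wipi1, which binds PI3P, had RNA at 15.5 CPM in KO leucine-free and 18.5 CPM in KO replete cells, and 14.3 CPM in WT leucine-free and 16.3 CPM in WT replete cells. Its footprints, 20.4 CPM in KO leucine-free and 17.0 CPM in KO replete cells, and 13.1 CPM in WT leucine-free and 14.8 CPM in WT replete cells, gave a KO against WT ratio of 0.62 (0.04 to 1.27) in leucine-free medium. For Wipi2 the KO libraries were below WT in RNA, at -0.44 without leucine and -0.28 with replete medium. The leucine ratios of Atg9a, the scramblase of the seed vesicles, had intervals that included 0 in both assays. Atg9a shares 32.6% of its exonic bases with Gm29253 and Ankzf1, and reads there were dropped.

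In the TFEB family, Tfeb RNA stood at 2.68 CPM in KO leucine-free and 3.41 CPM in KO replete cells, and 2.67 CPM in WT leucine-free and 1.98 CPM in WT replete cells. Its leucine ratios were -0.34 (-0.76 to 0.06) in KO and 0.43 (0.00 to 0.86) in WT cells, on mean counts of 102. Tfe3 RNA stood at 61.1 CPM in KO leucine-free and 56.9 CPM in KO replete cells, and 82.8 CPM in WT leucine-free and 81.4 CPM in WT replete cells, and both KO libraries lay below both WT libraries, at -0.44 (-0.52 to -0.36) without leucine and -0.52 (-0.60 to -0.44) with replete medium. Tfe3 footprints stood at 54.3 CPM in KO leucine-free and 38.8 CPM in KO replete cells, and 56.1 CPM in WT leucine-free and 46.3 CPM in WT replete cells, with leucine ratios of 0.49 (0.22 to 0.75) in KO and 0.28 (-0.01 to 0.56) in WT cells. Mitf RNA stood at 1.02 CPM in KO leucine-free and 1.2 CPM in KO replete cells, and 0.742 CPM in WT leucine-free and 0.406 CPM in WT replete cells, on 17 reads in WT replete cells. Its KO against WT ratio in replete medium, 1.54 (0.73 to 2.46), was called, and 17.4% of genes of like count were as far from their median. Mitf had 46 reads in KO replete, 32 in KO leucine-free and 30 in WT leucine-free cells. Without the KO replete library its mean would lie below the limit of 30. The call thus rests on the library that carried Mitf past that limit.

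Over all genes, more RNAs were called between the genotypes than between the media. In RNA, 0 of 39 were called in leucine-free medium, beside 8.37% of all measured genes. In replete medium 2 of 39 were called, Calcoco1 and Mitf, both higher in KO, beside 6.84%. Mitf passed the count limit only through its KO replete library. In footprints 0 of 31 were called in leucine-free medium (7.2% of all) and 0 of 31 in replete medium (2.92% of all). The members' median RNA ratio was -0.04 in leucine-free medium beside -0.01 over all genes, and -0.04 in replete medium beside -0.00. In footprints it was -0.04 in leucine-free medium beside 0.00, and 0.04 in replete medium beside -0.04. In translation efficiency it was 0.02 in leucine-free medium beside 0.04, and 0.15 in replete medium beside -0.02. With 1 library per genotype and medium, a difference of genotype and a difference between cultures cannot be told apart.

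**Figure D4:**
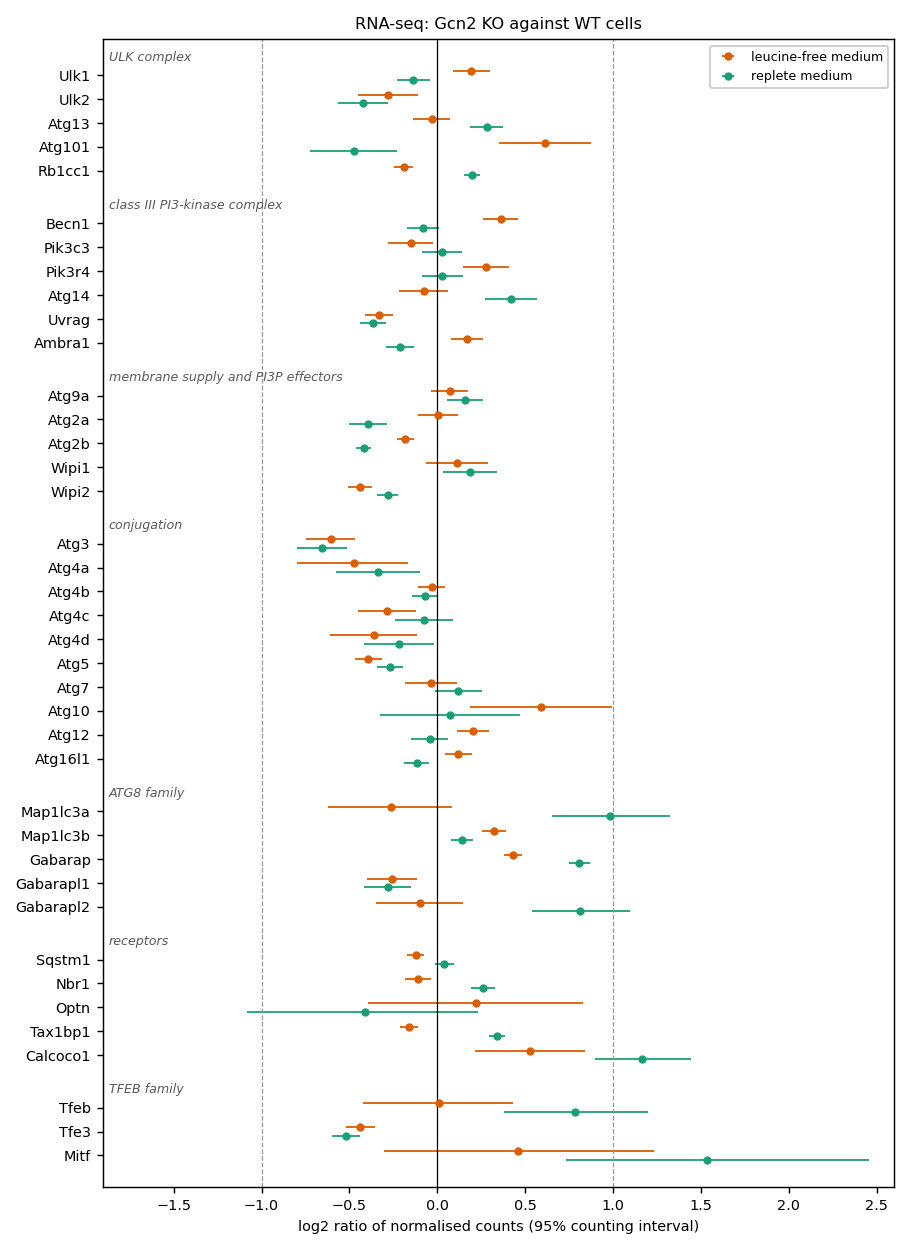
RNA log2 ratio of KO over WT cells for each of the 39 genes in leucine-free (orange) and replete (green) medium; bars are 95% counting intervals and dashed lines mark 2-fold. Calcoco1 at 1.17 and Mitf at 1.54 in replete medium lie past 2-fold, and Atg3, Tfe3 and Uvrag lie below 0 in both media.

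Translation efficiency was taken as normalised footprints over normalised RNA, on a log2 scale. The median of all measured genes in WT replete cells was 0.08. With each assay scaled on its own, these values too are relative to other genes, and a shift shared by all would not show. In WT replete cells Map1lc3a was the highest of the 31 genes at 2.66, above 94.8% of measured genes, followed by Atg101 at 1.9 and Atg3 at 1.6. Ulk1 was the lowest at -1.63, then Atg2b at -1.43. RNA reads cover untranslated regions and footprints mostly do not, so this level compares libraries of 1 gene better than it compares genes. After leucine removal, the members' median ratio of translation efficiency was 0.10 in KO cells beside -0.02 over all genes, and 0.03 in WT cells beside -0.10.

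Gabarap translation efficiency was -0.21 in KO leucine-free and 0.24 in KO replete cells, and 0.24 in WT leucine-free and 1.26 in WT replete cells. WT replete cells stood above the other 3 libraries. The leucine ratio of translation efficiency in WT cells was -1.02 (-1.18 to -0.86), called as lower (1 of 31, beside 3.24% of all genes), and 3.00% of genes of like count were as far out. In replete medium the KO against WT ratio was -1.02 (-1.14 to -0.91), also called (1 of 31, beside 1.42%), and the comparisons share the WT replete libraries. Both calls ended with scaling by total counts, at -0.92 and -0.97, and with the length trend removed, at -0.79 and -0.92.

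Map1lc3a translation efficiency was 2.96 in KO leucine-free and 1.71 in KO replete cells, and 1.91 in WT leucine-free and 2.66 in WT replete cells. The leucine ratio in KO cells was 1.25 (0.76 to 1.74), called as higher (1 of 31, beside 3.01%), and 0.8% of genes of like count were as far out. In WT cells it was -0.75 (-1.36 to -0.15). Against WT in leucine-free medium, KO cells stood at 1.06 (0.44 to 1.68) (1 of 31 called, beside 5.96%), which fell below 2-fold with a prior count of 5, at 0.94, or with the length trend removed, at 0.95. Pik3r4 had a WT leucine ratio of 0.81 (0.52 to 1.11) and Becn1 of 0.74 (0.34 to 1.15). Sqstm1 translation efficiency was 0.91 in KO leucine-free and 1.44 in KO replete cells, and 1.03 in WT leucine-free and 1.42 in WT replete cells, so both leucine-free libraries lay below both replete ones, at -0.53 (-0.63 to -0.42) in KO and -0.38 (-0.50 to -0.27) in WT cells.

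**Figure D5:**
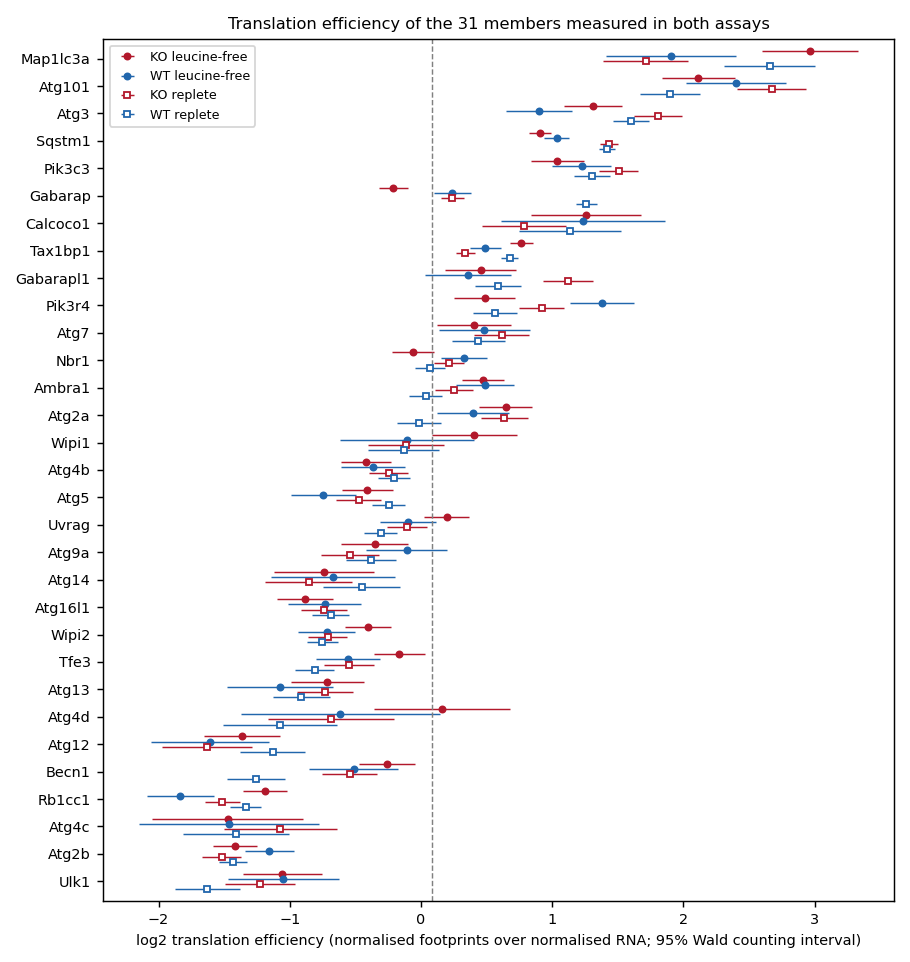
Log2 translation efficiency of the 31 genes measured in both assays, in KO (red) and WT (blue) cells, leucine-free (filled) and replete (open); bars are 95% counting intervals and the dashed line is the median of all measured genes in WT replete cells. Map1lc3a, Atg101 and Pik3c3 lie above 1 in every library, and Ulk1, Atg2b, Atg4c, Rb1cc1 and Atg12 below -1.

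The response to leucine removal in KO cells minus that in WT cells was past 2-fold for 3 of 39 genes in RNA, beside 4.7% of all measured genes. These were Atg101 at 1.08 (0.73 to 1.43), Map1lc3a at -1.24 (-1.72 to -0.77) and Mitf at -1.07 (-2.14 to -0.01). Mitf passed the count limit only through its KO replete library, and it was lost with a prior count of 5, at -0.89. In footprints 0 of 31 were called, beside 4.78%, with Pik3r4 at -1.0 (-1.37 to -0.63), which is -0.998 unrounded, Atg12 at 0.99 (0.32 to 1.66) and Nbr1 at -0.91 (-1.18 to -0.64). In translation efficiency 3 of 31 were called, beside 8.22%, with Map1lc3a at 2.0 (1.22 to 2.78), Pik3r4 at -1.25 (-1.66 to -0.84) and Atg101 at -1.06 (-1.64 to -0.47). Translation efficiency divides by the same RNA counts, so the values of Atg101 and Map1lc3a are not separate from their RNA values. The members' medians were -0.09 in RNA beside -0.01 over all genes, 0.03 in footprints beside 0.04, and -0.01 in translation efficiency beside 0.07.

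The RefSeq promoter windows of GRCm38.p6, from 250 bases before to 50 after the start, were searched on both strands, since Atg3 was lower in KO cells in both media and Atg14, Sqstm1 and Gabarap RNA was above its replete level in WT cells. The motifs were CACGTG, the E-box core that the TFEB family binds, its longer form TCACGTGA, which contains it, and TGATGNAA, the core of the element bound by ATF4 with C/EBP. Of the 39 genes 33 matched, with 42 windows. Rb1cc1, Becn1, Pik3c3, Atg12, Atg16l1 and Map1lc3a had no window and were not searched. CACGTG was in 4 of 42 windows, 9.52%, those of Atg14, Atg3, Atg5 and Atg7, beside 7.91% of 20477 protein-coding promoters and 7.15% of all 32851. TCACGTGA was in the Atg3 window alone, 2.38% of the 42, beside 1.25% of protein-coding promoters and 0.974% of all. TGATGNAA was in 0 of 42, beside 3.56% and 3.97%. Atg3 is shown from chr16:45158579-45158878, plus strand, and Atg14 from chr14:47568385-47568684, minus strand. Sqstm1 is shown from chr11:50210771-50211070, minus strand, and Gabarap from chr11:69991120-69991419, plus strand. Each runs 5′ to 3′ on its gene's strand, with CACGTG or TCACGTGA in capitals, and the Sqstm1 and Gabarap windows hold neither. Gabarapl2, whose RNA had the highest WT leucine ratio of the 39 genes at 0.95, is not shown, and its window holds none of the motifs. Some RefSeq starts lie inside the gene as counted. The Gabarap window lies mostly after that gene's start at chr11:69991143, and the Atg9a window lies mostly inside its gene. Windows of Atg4b, Atg7, Atg14, Wipi1 and Wipi2 lie wholly inside those genes, as do some windows of Mitf, Nbr1, Tax1bp1, Tfeb and Tfe3. Where no other window reached past it, sequence before the gene start was thus largely not searched. A match describes these letters and is not a binding site.
Atg3: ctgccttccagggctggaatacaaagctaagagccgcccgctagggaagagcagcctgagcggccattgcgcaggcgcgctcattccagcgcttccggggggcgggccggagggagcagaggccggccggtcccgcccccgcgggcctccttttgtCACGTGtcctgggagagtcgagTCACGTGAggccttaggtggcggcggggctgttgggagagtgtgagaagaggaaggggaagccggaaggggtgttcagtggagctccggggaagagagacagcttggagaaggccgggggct
Atg14: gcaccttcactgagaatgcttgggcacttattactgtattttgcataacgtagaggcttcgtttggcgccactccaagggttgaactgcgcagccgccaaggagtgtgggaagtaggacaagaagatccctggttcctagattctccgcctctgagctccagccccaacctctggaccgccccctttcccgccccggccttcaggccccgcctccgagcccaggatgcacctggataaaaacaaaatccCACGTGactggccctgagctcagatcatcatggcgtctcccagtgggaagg
Sqstm1: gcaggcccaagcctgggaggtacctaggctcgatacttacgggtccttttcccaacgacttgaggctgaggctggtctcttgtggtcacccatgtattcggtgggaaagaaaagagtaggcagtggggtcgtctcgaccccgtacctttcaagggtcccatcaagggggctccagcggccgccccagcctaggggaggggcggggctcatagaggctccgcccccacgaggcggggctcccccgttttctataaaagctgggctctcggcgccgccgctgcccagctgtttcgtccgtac
Gabarap: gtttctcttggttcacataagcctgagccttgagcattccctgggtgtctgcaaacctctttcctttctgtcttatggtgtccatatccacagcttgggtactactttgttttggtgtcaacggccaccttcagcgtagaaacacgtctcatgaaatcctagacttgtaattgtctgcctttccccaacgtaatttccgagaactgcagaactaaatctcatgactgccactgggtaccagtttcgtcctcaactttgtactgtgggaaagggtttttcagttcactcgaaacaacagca

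Another 49 genes of the pathway were counted for comparison, covering other autophagosome formation, fusion with lysosomes, other receptors and the nutrient control of TFEB. Of these 47 were measured in RNA and 45 in footprints. After leucine removal, 1 of 47 was called in RNA in KO cells, Vmp1 at 1.01 (0.94 to 1.07), which encodes a membrane protein of the endoplasmic reticulum needed to form autophagosomes, and 0 of 47 in WT cells, beside 3.17% and 1.71% of all measured genes. In footprints, 1 of 45 was called higher and 1 lower in KO cells, beside 2.13% of all, with Ncoa4, the ferritin receptor, at 1.34 (0.64 to 2.07) and Bnip3l, a mitophagy receptor, at -1.11 (-1.93 to -0.39). In WT cells 1 of 45 was called, beside 1.48%, with Bnip3, a related mitophagy receptor, lower at -1.02 (-2.20 to -0.12). Against WT, KO footprints were called for 3 of 45 in leucine-free medium, beside 7.2%, and for 2 of 45 in replete medium, beside 2.92%. Those of Atg9b, a relative of Atg9a, stood at 1.68 (0.92 to 2.61) without leucine and 1.11 (0.62 to 1.63) with replete medium, and those of Bnip3l at 1.10 (0.52 to 1.71) in replete medium. In leucine-free medium Bnip3 stood at 1.18 (0.21 to 2.39) and Rragb, a RAG GTPase of the lysosomal amino acid sensor, at -1.46 (-1.82 to -1.11). In RNA 0 of 47 were called between genotypes in leucine-free medium, beside 8.37%, and 0 of 47 in replete medium, beside 6.84%. KO minus WT leucine responses in footprints were past 2-fold for 3 of 45, beside 4.78%, namely Bnip3 at 1.73 (0.61 to 2.85), Bnip3l at -1.44 (-2.56 to -0.32) and Ncoa4 at 1.07 (0.05 to 2.10). In RNA 0 of 47 were past 2-fold in this difference, beside 4.7%. Translation efficiency was called after leucine removal for 3 of 45 in KO cells, beside 3.01%, with Bnip3 at 1.46 (0.77 to 2.16), Ncoa4 at 1.18 (0.46 to 1.89) and Wdr45, a PI3P-binding protein, at -1.09 (-1.80 to -0.38). In WT cells it was called for 1 of 45, beside 3.24%, the scaffold Wdfy3 at 1.05 (0.81 to 1.29). Between KO and WT it was called for 2 of 45 in leucine-free medium, beside 5.96%, with Atg9b at 1.62 (0.71 to 2.52) and Bnip3 at 1.40 (0.37 to 2.42). In replete medium it was called for 1 of 45, beside 1.42%, the fusion SNARE Vamp8 at -1.04 (-1.40 to -0.68). The KO minus WT response was called for 1 of 45, beside 8.22%, Bnip3 at 2.36 (1.16 to 3.55).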

How the data were processed

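Counts were those the authors deposited, 1 table per library with whole-number reads per gene. Per the file headers, reads over exons were summed by gene with featureCounts 1.6.4 on Ensembl release 96, with no strand option and none to keep multiply mapped reads or reads over several genes, which this tool then leaves out. Of the 39 genes, 12 share exonic bases with another gene, 3 of them at least 25%, and Sqstm1 shares 17.3%. The submitters' processing notes also name cutadapt, STAR, Subread and GRCm38. For their settings, and for any removal of duplicates by molecular identifiers, the sources used here give nothing. Reads may thus be PCR copies, and intervals cover counting error only.

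From these counts, library sizes over protein-coding genes were scaled within each assay by TMM factors (edgeR 4.0.16, R 4.3.3), which lay between 0.991 and 1.01 in RNA and between 0.949 and 1.05 in footprints. Protein-coding genes were taken by symbol from RefSeq tables, and 55450 of 55536 gene IDs had a symbol. Log2 ratios used a prior count of 0.5. Ratios between libraries have exact conditional binomial 95% intervals (SciPy 1.17.1). Translation efficiency and KO minus WT responses have Wald intervals, and CPM have exact Poisson intervals. No test across cultures was possible with 1 library per group. Ratios between libraries, and KO minus WT responses within an assay, were first tested on simulated data with their intervals and calls. Translation efficiency, Poisson intervals, the comparison with genes of like count and the trend on length were not. The simulated counts had Poisson counting error alone, as the intervals assume, with no spread between cultures and no PCR copies. They check the calculation and cannot show how well the intervals hold in these data.

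The genes given in full are those called in any comparison, the 3 highest and 3 lowest with an interval excluding 0 in each comparison and assay, and Ulk1, Sqstm1, Map1lc3b, Gabarapl1, Becn1 and Tfeb. Others are given by ratios or ranges. The genes, the lists and the comparisons were chosen with earlier results of these data known. The alternatives were scaling by total counts, DESeq2 1.42.0 size factors, count limits of 10 and 100, a prior count of 5 and removal of a trend on exonic length.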

Additional observations from a re-analysis of the deposited data

Results flagged for a closer look

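The response to leucine removal differed between KO and WT cells by over 2-fold in 6 cases, 3 of 39 genes in RNA beside 4.7% of all measured genes and 3 of 31 in translation efficiency beside 8.22%, judged by the counting interval of the difference, since the spread between cultures could not be measured with 1 library per group. Atg101 had a KO minus WT difference of 1.08 (0.73 to 1.43) in RNA, where the leucine ratio was 0.55 in KO and -0.53 in WT cells, and of -1.06 (-1.64 to -0.47) in translation efficiency, where it was -0.56 in KO and 0.50 in WT cells. Its footprints stood at 37.6 and 37.7 CPM in KO leucine-free and KO replete cells, and 29.9 and 30.6 CPM in WT leucine-free and WT replete cells. Translation efficiency divides by the same RNA counts, so for Atg101 it mostly repeats the RNA difference with the sign turned. Cases of 1 gene in both measures are thus not separate results. Map1lc3a had a difference of -1.24 (-1.72 to -0.77) in RNA, from ratios of -0.62 in KO and 0.62 in WT cells. Its difference in translation efficiency was 2.0 (1.22 to 2.78), from 1.25 in KO and -0.75 in WT cells. Mitf had an RNA difference of -1.07 (-2.14 to -0.01), with 17 to 46 reads per library. The 46 were in KO replete cells, the library that carried its mean past the count limit. Pik3r4 had a difference of -1.25 (-1.66 to -0.84) in translation efficiency, from -0.43 in KO and 0.81 in WT cells.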

How the results depend on the processing

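Of 528 values for single genes under the 6 alternatives, 515 kept their direction and their side of the 2-fold limit. Of the rest, 9 fell short of it and 4 came past it, and 0 of the 528 turned direction. The count limits leave the ratio of a gene unchanged, so values under them could not move. The ratios were also picked as called or most extreme, with intervals excluding 0, which made a turn of direction unlikely. Of 90 counts of called genes, 74 stayed within 1.5 times. After leucine removal, the KO footprint count went to 0 with a count limit of 100 and with a prior count of 5. The WT count in translation efficiency went to 0 with total counts, with DESeq2 size factors (Gabarap at -0.98) and with the length trend removed, and to 3 with a count limit of 10. Between KO and WT in replete medium, the RNA count was 1 with a limit of 100, which drops Mitf, and the count in translation efficiency was 0 with total counts and with the length trend removed. In leucine-free medium the count in translation efficiency was 2 with a limit of 10, and 0 with a prior count of 5 and with the length trend removed. The KO minus WT footprint count was 1 with total counts, DESeq2 size factors or a prior count of 5, each from Pik3r4 (-1.01, -1.03 and -1.0), and 1 with the length trend removed, from Atg12 at 1.00. WT footprint ratios to leucine were above 0 for 18 genes and below for 13, against 22 and 9 with total counts. No paired analysis was possible because each group holds 1 library, and for the same reason no library could be left out. Footprints of 8 genes were too few for a ratio.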
